A study of Homo sapiens with 6 samples.

Results

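8505C is an established cell line from an undifferentiated (anaplastic) thyroid carcinoma, and its baseline transcriptome was set against those of 2 other thyroid cancer lines, BHT-101, also anaplastic, and FTC-133, from a follicular carcinoma. The study altered CRABP2, a cytosolic binding protein that hands retinoic acid over to nuclear receptors. 8505C received an empty vector (8505C_Empty) or a CRABP2 vector (8505C_CRABP2), and BHT-101 and FTC-133 received a control siRNA (siControl) or an siRNA against CRABP2 (siCRABP2), with 1 RNA sequencing library from total RNA for each of the 6 conditions. The baseline comparison used 3 of the 6 libraries: 8505C_Empty, BHT101_siControl and FTC133_siControl. The control conditions were themselves manipulations, with a vector in 8505C and an siRNA in the other lines. The line and the kind of control therefore cannot be told apart. Nothing in the labels says how the vector was delivered or whether it was stable or transient. Nor do they say whether the cultures were clones, pools or separate passages. With 1 library a line no test was made, and every difference below compares libraries.

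A gene was counted as measured if it was protein-coding and reached 1 FPKM, the fragments of a gene scaled to its exon length and to the library total, in 1 or more of the 3 control libraries. That left 11961 of the 58884 gene identifiers in the table. Values were compared as log2(FPKM + 1), a scale that understates the differences of low genes. A gene was called set apart in 8505C if the 8505C_Empty library differed from both other control libraries in the same direction by at least 1 on this scale. The size given for a gene is the smaller of its 2 differences, written as the smaller difference.

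Anaplastic carcinoma is the form of thyroid cancer that has lost the follicular cell program, which in normal thyroid is run by PAX8, NKX2-1, FOXE1 and HHEX and yields thyroglobulin and the iodide transporter. Tumour cells of this kind can secrete interleukin-1, chemokines and matrix metalloproteinases, many of whose genes carry binding sites for the transcription factors NF-kB and AP-1. Genes of mitosis are instead switched on in a wave before each cell division, through promoters with CCAAT boxes and a cell cycle element, so their transcript level follows how many cells are dividing.

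In 8505C_Empty, 962 genes were higher than in both other lines and 1323 were lower. These are 8.04% and 11.1% of the measured genes. The same counts were 820 (6.86%) higher and 534 (4.46%) lower for BHT-101, and 1043 (8.72%) higher and 330 (2.76%) lower for FTC-133, each against the rest, and these counts share libraries. A difference of at least 2 was reached by 206 genes above and 341 below. With quantile normalization of the 3 libraries the counts were 1270 above and 1095 below, so which direction holds more genes depends on the scaling. The median difference of all measured genes from FTC-133 was -0.15 as deposited and 0.05 under this scaling. At the edge of the rule, LONP2 lay just inside at 13.6 FPKM in 8505C, against 5.04 in BHT-101 cells and 6.32 in FTC-133, and ERGIC1 just outside at 28.6, against 13.8 and 13.7 FPKM. On the lower side APBA3 lay just inside at 1.63 FPKM, against 4.34 and 4.25, and ZNF212 just outside at 3.05, against 8.58 and 7.10 FPKM.

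The second library of each line was not used by the rule. In these treated libraries, 683 of the 962 higher genes and 960 of the 1323 lower genes were again set apart in the same direction. Over all measured genes, 956 (7.99%) were set apart higher and 1190 (9.95%) lower in 8505C_CRABP2 against both siCRABP2 libraries. The treatments differ between lines, so these libraries are no replicates. Read totals recovered from the values ran from 22849556 in 8505C_Empty to 27958622 in BHT101_siControl.

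**Figure D1:**
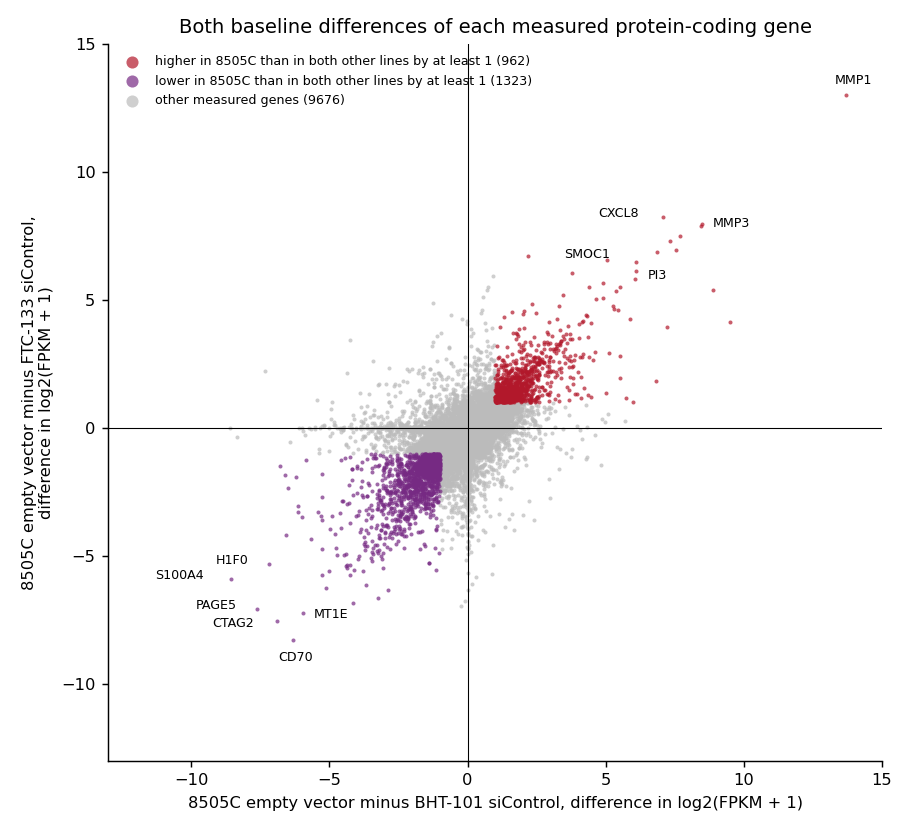
Each point is 1 of the 11961 measured genes, placed by its difference in log2(FPKM + 1) of 8505C_Empty minus BHT101_siControl (horizontal axis) and minus FTC133_siControl (vertical axis). MMP1 stands alone at the upper right, at 13.70 and 13.02, and 1323 genes fill the lower left corner against 962 in the upper right.

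Secreted proteins of inflammation and matrix breakdown led the genes above both other lines. MMP1 (ENSG00000196611, GRCh38 chromosome 11, 102789920 to 102798160, minus strand), the interstitial collagenase, was at 13763 FPKM in 8505C_Empty, against 0.0363 FPKM in BHT101_siControl and 0.654 FPKM in FTC133_siControl. It alone took 2.71% of the reads of the 8505C_Empty library. The interval of the log2 read ratio ran from 16.7 to 21.6 against BHT-101 and from 13.9 to 14.9 against FTC-133. MMP1 was as high in 8505C_CRABP2, at 13736 FPKM, against 0 in BHT101_siCRABP2 and 5.62 FPKM in FTC133_siCRABP2.

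MMP3 (chromosome 11, 102835801 to 102843803), stromelysin-1, which can activate MMP1, was at 357 FPKM in 8505C, against 0 in BHT-101 cells and 0.413 FPKM in FTC-133. MMP2, a gelatinase, was at 1.39 FPKM in 8505C, against 41.7 in BHT-101 cells and 274 in FTC-133. MMP14, a membrane protease that activates MMP2, was at 4.71 FPKM in 8505C, against 53.6 in BHT-101 cells and 574 in FTC-133. MMP15, another membrane-type member, was higher in 8505C, at 4.42 FPKM, against 0.541 and 0.895 FPKM.

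Of 26 measured genes of matrix proteases, the plasminogen system and their inhibitors, 9 (34.6%) were set apart higher in 8505C and 4 (15.4%) lower, beside the 8.04% and 11.1% of all measured genes. TFPI2, a serine protease inhibitor of the matrix, was at 1341 FPKM in 8505C, against 0.849 in BHT-101 cells and 75.6 in FTC-133. SERPINE2 (protease nexin-1), an inhibitor of thrombin and plasminogen activators, was at 115 FPKM in 8505C, against 19.1 and 29.3 FPKM in BHT-101 and FTC-133. The count of higher members was 5 in the treated libraries, where SERPINE2 was at 65.9 FPKM in 8505C_CRABP2, against 20.6 and 41.1 FPKM, and was not set apart.

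The interleukin-1 family formed a second group at the top. IL1B (chromosome 2, 112829751 to 112836903) was at 355 FPKM in 8505C, against 0.0231 in BHT-101 cells and 0.520 in FTC-133, and the neighbouring IL1A was at 187 FPKM, against 0.0168 and 0.531 FPKM. IL1RL1, the receptor of interleukin-33, was at 159.7 FPKM in 8505C, against 0 and 0.0210 FPKM. IL33 itself was at 12.9 FPKM in 8505C, 0 in BHT-101 cells and 3.23 FPKM in FTC-133. The receptor chain IL1RAP was also higher (7.35 FPKM, against 1.17 and 2.35), whereas the receptor IL1R1 lay within 1 of both lines at 6.52 FPKM, against 3.23 and 2.91. The antagonist IL1RN stayed under 0.1 FPKM in all 3.

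CXCL8 (interleukin-8, a neutrophil attractant) was at 1136 FPKM in 8505C, against 7.49 in BHT-101 cells and 2.72 in FTC-133. IL24 was at 48.1 FPKM, against 0.0723 and 0.0814 FPKM, and the granulocyte growth factor CSF3 at 17.2 FPKM, with no read in either other control library, which is at least 316.5-fold higher taking 3 reads as the floor in each of those libraries. IL6 was at 49.1 FPKM in 8505C, against 1.26 and 1.91 FPKM. Some members ran the other way: CXCL5, also a neutrophil attractant, had no read in 8505C, against 6.03 and 16.5 FPKM, and CCL5 was at 0.613 FPKM, against 145 and 7.23 FPKM.

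Over the list, 13 of 31 measured chemokines and cytokines (41.9%) were set apart higher in 8505C and 5 (16.1%) lower. In the treated libraries 8 were higher. There the 8505C values of CXCL8 (494 FPKM), IL1B (163 FPKM) and IL6 (21.8 FPKM) were lower than in 8505C_Empty, and the FTC133_siCRABP2 values (90.3, 9.01 and 11.8 FPKM) were above those of FTC133_siControl. IL6 and CXCL1 were not set apart there. CXCL1, at 333 FPKM in 8505C_Empty, against 1.27 and 20.5 in the control libraries of BHT-101 and FTC-133, was at 122 FPKM in 8505C_CRABP2, against 2.56 in BHT101_siCRABP2 and 216 in FTC133_siCRABP2. CXCL1, CXCL2 and CXCL3 share much sequence, so the split of reads between them is uncertain.

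NF-kB controls many of these genes, and its subunits and feedback targets were split. Of 29 measured, 6 (20.7%) were set apart higher in 8505C and 4 (13.8%) lower, beside 8.04% and 11.1% of all measured genes. TNFAIP3 (A20, the feedback inhibitor of NF-kB) was at 34.8 FPKM in 8505C, against 1.99 in BHT-101 cells and 1.84 in FTC-133. PTGS2 (cyclooxygenase-2) was at 52.1 FPKM, against 1.53 and 0.153 FPKM, and BCL2A1, a survival protein, at 34.8 FPKM, against 0.428 and 0.0964 FPKM. The subunit NFKB1 was at 11.7 FPKM, against 10.2 and 6.13 FPKM, and RELB at 12.5 FPKM, against 12.2 and 3.47 FPKM, neither set apart. TNFAIP2 was far lower in 8505C, at 0.661 FPKM, against 20.5 and 39.0 FPKM, as were the adaptors TRAF2 (2.70, against 14.2 and 11.1 FPKM) and MYD88 (3.89, against 14.8 and 11.3 FPKM).

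The letters of 2 of these promoters are shown because both hold matches to the NF-kB-like motif GGNNNTTCC, in capitals, and CXCL8 also one to the AP-1-like motif TGANTCA. Both motifs were searched on both strands, in windows of RefSeq promoters on GRCh38.p14 that run from 250 bases before to 50 bases after each gene's start, and the 250 bases before the start are given, 5′ to 3′ on the gene's strand. CXCL8 lies at chr4:73740319-73740568, plus strand, with the motif matches 91 to 83 bases (NF-kB-like) and 137 to 131 bases (AP-1-like) before the start. TNFAIP3 lies at chr6:137867009-137867258, plus strand, with both matches on the reverse strand, 67 to 59 and 55 to 47 bases before the start.
CXCL8: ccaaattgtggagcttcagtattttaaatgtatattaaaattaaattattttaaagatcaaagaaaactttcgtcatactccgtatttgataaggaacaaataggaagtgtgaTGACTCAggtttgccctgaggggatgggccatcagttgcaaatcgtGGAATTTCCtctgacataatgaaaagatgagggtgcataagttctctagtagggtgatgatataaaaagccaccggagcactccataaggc
TNFAIP3: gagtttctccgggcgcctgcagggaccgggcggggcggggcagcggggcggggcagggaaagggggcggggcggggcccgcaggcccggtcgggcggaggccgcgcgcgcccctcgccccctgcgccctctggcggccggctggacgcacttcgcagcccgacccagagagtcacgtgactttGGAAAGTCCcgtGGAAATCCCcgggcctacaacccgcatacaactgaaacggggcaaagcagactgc
Over the 26 genes set apart higher in the chemokine, NF-kB and acute-phase lists, 21 promoters were in the table. The NF-kB-like letters were in 9 of these 21 (42.9%), against 23.1% of 9499 promoters of measured genes and 20.1% of all 35116 promoters. The AP-1-like letters were in 4 of 21 (19%), against 4.61% and 7.71%. Over all genes set apart higher, the NF-kB-like letters were in 23.7% of promoters and the AP-1-like letters in 5.79%. Many genes of these lists were already known for such sites, so the larger shares describe the lists. The share among list members not set apart was not counted, so a link of the letters to being set apart was not tested. A match is a stretch of letters and not a shown binding site.

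Acute-phase and antimicrobial proteins showed 7 of 17 measured members (41.2%) set apart higher in 8505C and 1 lower. PI3 (elafin, an elastase inhibitor) was at 68.2 FPKM and S100A9 (a calprotectin subunit) at 40.1 FPKM in 8505C, with no read in either other control library, which is at least 311-fold and 190-fold higher against a floor of 3 reads in each. SLPI, a related inhibitor, was at 99.4 FPKM, against 2.04 and 0.0676 FPKM. These proteins are also made by leukocytes, so leukocyte markers were read beside them: 9 of 10 were under 0.1 FPKM in 8505C, among them PTPRC at 0.0143 and SPI1 at 0.0846 FPKM, and CD14 stood at 16.4 FPKM, against 3.26 and 0.171 FPKM.

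Secreted regulators of other pathways completed the top group. SFRP1, which binds and blocks WNT ligands, was at 207 FPKM in 8505C, against 0 in BHT-101 cells and 0.145 in FTC-133. ESM1 (endocan) was at 115 FPKM, and listed at 0 in both others. SMOC1, a matricellular modulator of BMP signals, was at 91.4 FPKM, against 0.344 and 0.0184 FPKM, and the adhesion protein MPZL2 at 72.1 FPKM, against 0.106 and 0.306 FPKM. FST (follistatin, an activin antagonist) was at 38.1 FPKM, against 0.0130 and 0.454 FPKM. All 12 of the genes furthest above both lines kept this order in 8505C_CRABP2, as the plot of the 24 outermost genes by library shows.

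**Figure D2:**
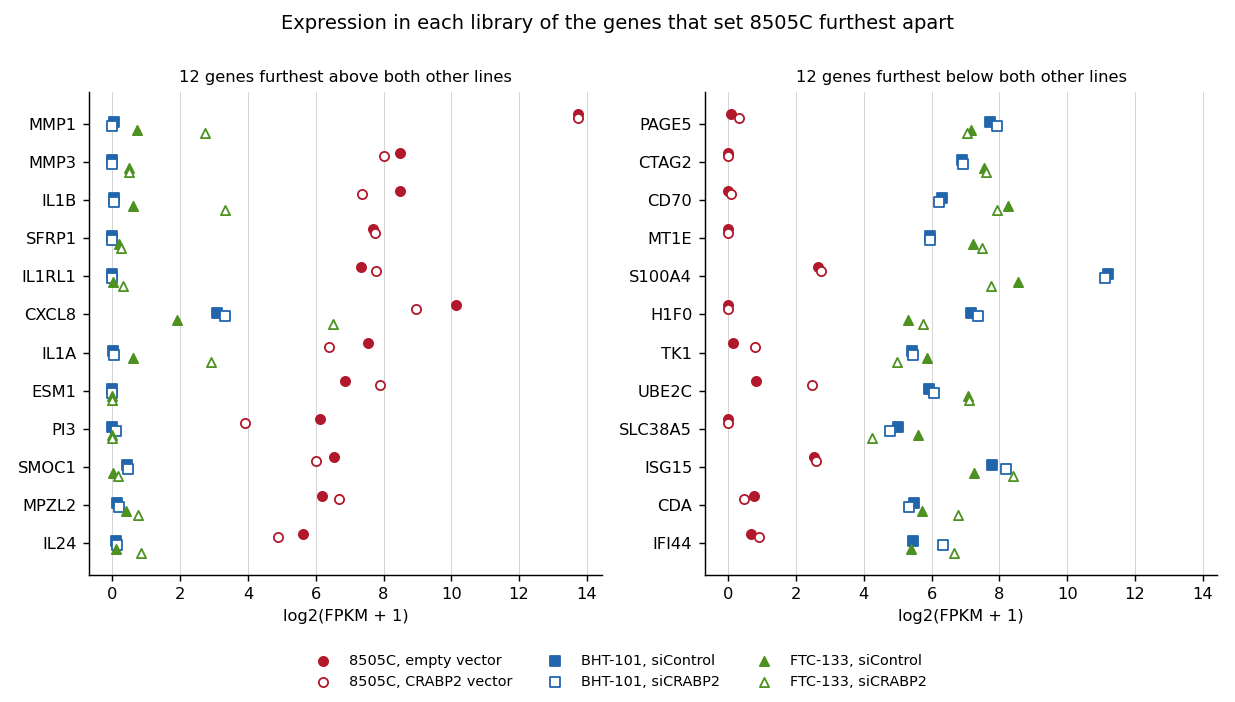
Log2(FPKM + 1) in each of the 6 libraries for the 12 genes furthest above (left) and the 12 furthest below (right) both other lines at baseline. Circles stand for 8505C, squares for BHT-101 and triangles for FTC-133, filled for control libraries and open for CRABP2 vector or siCRABP2; in every gene shown both 8505C libraries lie on one side of all 4 others.

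Genes of mitosis were the list furthest below the other lines. All 37 measured members were lower in 8505C_Empty than in both other lines, and 35 (94.6%) were set apart, beside 11.1% of all genes. The median difference was -2.90 from BHT-101 and -4.08 from FTC-133, where the medians of all measured genes were -0.0041 and -0.15. UBE2C, the ubiquitin-conjugating enzyme of mitotic exit (chromosome 20, 45812576 to 45816957), was at 0.749 FPKM in 8505C, against 59.8 in BHT-101 cells and 134 in FTC-133. CDC20, which activates the same ligase, was at 1.33 FPKM, against 43.2 and 125 FPKM.

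The kinesin KIF20A was at 0.159 FPKM in 8505C, against 18.8 in BHT-101 cells and 53.8 in FTC-133. BIRC5 (survivin) was at 0.241 FPKM, against 18.4 and 42.5 FPKM, and the chromokinesin KIF4A at 0.268 FPKM, against 18 and 20.5 FPKM. MKI67, the proliferation antigen, was at 0.290 FPKM, against 8.62 and 16.7 FPKM. BUB3, a checkpoint protein, was the member that differed least, at 17.8 FPKM, against 20.6 and 28.1 FPKM. The other member not set apart was KNL1, at 0.290 FPKM, against 1.45 and 7.59 FPKM.

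In 8505C_CRABP2 these genes were less low, with CDC20 at 4.68 FPKM and MKI67 at 0.941 FPKM, and 35 of the 37 were set apart lower in the treated libraries. KNL1 was at 8.31 FPKM there, against 1.69 in BHT101_siCRABP2 and 5.14 in FTC133_siCRABP2, and was the exception to the order. In bulk RNA fewer dividing cells and less of these transcripts per cell cannot be told apart.

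Promoters of 2 of these genes are shown because they carry CCAAT (the box bound by NF-Y) and TTTGAA (here called a cell cycle element). Both are in capitals on either strand, in the 250 bases before the start. CDC20 lies at chr1:43358731-43358980, plus strand, and KIF4A at chrX:70289854-70290103, plus strand. In CDC20, TTTGAA stood 65 to 60 bases and CCAAT 100 to 96 and 55 to 51 bases before the start, with a further match of TTTGAA on the reverse strand. In KIF4A, TTTGAA stood 34 to 29 bases before the start and CCAAT, on the reverse strand, 58 to 54 bases before it.
CDC20: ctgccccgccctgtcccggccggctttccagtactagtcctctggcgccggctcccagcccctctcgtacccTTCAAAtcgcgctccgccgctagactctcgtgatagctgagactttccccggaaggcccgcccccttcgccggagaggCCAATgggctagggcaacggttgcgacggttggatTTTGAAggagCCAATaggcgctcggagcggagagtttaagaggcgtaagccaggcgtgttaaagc
KIF4A: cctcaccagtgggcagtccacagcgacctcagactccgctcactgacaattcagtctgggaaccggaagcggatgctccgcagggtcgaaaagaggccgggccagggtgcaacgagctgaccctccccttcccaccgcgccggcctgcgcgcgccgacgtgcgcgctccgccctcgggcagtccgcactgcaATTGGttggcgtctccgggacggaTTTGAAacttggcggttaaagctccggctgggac
Of the 35 set-apart genes of mitosis, 29 had a promoter in the table. TTTGAA was in 20 of the 29 (69%), against 9.56% of promoters of measured genes and 15.2% of all promoters, and CCAAT was in 22 (75.9%), against 36.7% and 34.6%. Among 31 promoters of set-apart genes of DNA replication, CCAAT was in 16 (51.6%) and TTTGAA in 0. The inflammatory genes set apart higher held CCAAT in 11 of 21 (52.4%) and TTTGAA in 3 (14.3%). The NF-kB-like letters were in 8 of the 29 mitosis promoters (27.6%) and 11 of the 31 replication promoters (35.5%). The AP-1-like letters were in 0 and 1. Over all genes set apart lower, TTTGAA was in 12.6% of promoters and CCAAT in 42.5%. Genes of mitosis were already known for these letters, so their larger shares describe the list. The share among members not set apart was not counted, so a link of the letters to being set apart was not tested.

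DNA replication and nucleotide supply followed mitosis. Of 45 measured genes, 44 were lower in 8505C than in both lines and 34 (75.6%) were set apart, with median differences of -1.49 from BHT-101 and -2.46 from FTC-133. TK1 (thymidine kinase) was at 0.0949 FPKM (4 reads) in 8505C, against 41.6 and 57.5 FPKM in BHT-101 and FTC-133. MCM7, a subunit of the replicative helicase, was at 8.22 FPKM, against 118 and 145 FPKM. RRM2, of ribonucleotide reductase, was at 0.311 FPKM, against 10.1 and 11 FPKM. PCNA, the sliding clamp, was less far below, at 49.1 FPKM, against 121 and 131 FPKM, and POLA1 alone was not below both, at 6.34 FPKM, against 3.42 and 6.22 FPKM. The count of 34 was 20 in the treated libraries, 22 with 8505C_CRABP2 against the siControl libraries and 17 with a pseudocount of 5.

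Cyclins and inhibitors of the G1 phase did not move as a block: of 23 measured, 1 (4.3%) was set apart higher and 6 (26.1%) lower. For all measured genes these shares were 8.04% and 11.1%. CDKN2B (p15) was the higher one, at 32.0 FPKM in 8505C, against 12.7 and 5.30 FPKM. The other INK4 inhibitors were lower in 8505C, with CDKN2A (p16) at 8.13 FPKM, against 20.8 and 72.3, CDKN2C (p18) at 2.22 FPKM, against 9.60 and 84.3, and CDKN2D (p19) at 2.53 FPKM, against 11.2 and 18.7. CCND3 (cyclin D3) was at 1.77 FPKM, against 12.1 and 12.9 FPKM, its partner CDK6 at 4.19 FPKM, against 10.9 and 18.7, and the MYC antagonist MXD4 at 3.31 FPKM, against 14.1 and 12.9.

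CCND1 (cyclin D1) was at 57.1 FPKM in 8505C, against 30.5 and 27.7 FPKM, short of the size of 1 from BHT-101. CDKN1A (p21) lay between, at 23.9 FPKM, against 42.1 in BHT-101 cells and 9.39 in FTC-133, and so did MYC, at 19.1 FPKM, against 110.0 and 5.25. The 6 lower calls were 3 in the treated libraries. EZH2, a Polycomb methyltransferase common to dividing cells, was at 1.87 FPKM, against 18.8 and 19.4 FPKM. It belongs to a list of 11 measured stemness and oncofetal genes, of which 2 (18.2%) were set apart higher, beside 8.04% of all measured genes. These were SOX9 (22.2, against 5.28 and 7.49 FPKM) and CD44 (92.8, against 29.4 and 30.5 FPKM). The smaller difference of CD44 was 1.57, and 0.86 in the treated libraries, where it was not set apart.

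**Figure D3:**
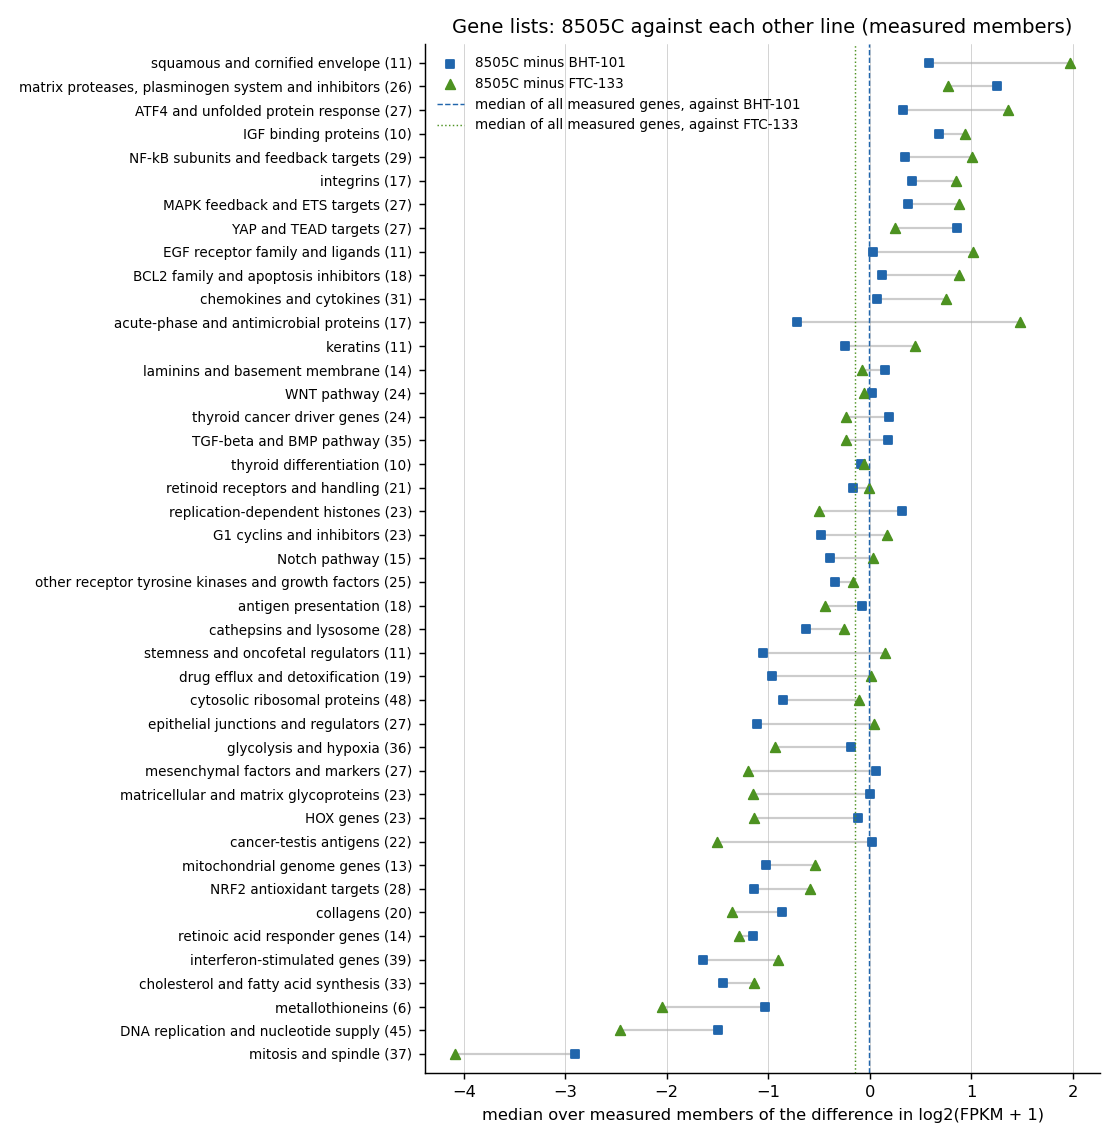
For each gene list shown (measured members in brackets), the median difference in log2(FPKM + 1) of 8505C_Empty minus BHT101_siControl (squares) and minus FTC133_siControl (triangles). Dashed and dotted lines mark the medians of all 11961 measured genes; mitosis lies furthest left on both, and matrix proteases among those furthest right.

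The enzymes of cholesterol and fatty acid synthesis were also low. Of 33 measured, 28 were lower than in both lines and 16 (48.5%) set apart, with medians of -1.45 from BHT-101 and -1.14 from FTC-133. INSIG1, whose protein holds back SREBP, was at 3.25 FPKM in 8505C, against 56.3 and 79.8 FPKM. FADS2, a fatty acid desaturase, was at 0.336 FPKM, against 8.48 and 9.25 FPKM, FASN (fatty acid synthase) at 12.9 FPKM, against 37.0 and 48.0, and MVK (mevalonate kinase) at 0.553 FPKM, against 5.16 and 5.36. The regulators were low as well, SREBF1 at 9.68 FPKM, against 33.3 and 30.5, and SREBF2 at 9.89 FPKM, against 36.5 and 22.9.

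Interferon-stimulated genes were more often low than high. Of 39 measured, 26 were lower than in both lines, 6 were higher and 7 lay between, and 15 (38.5%) were set apart lower in 8505C and 2 higher, with medians of -1.64 from BHT-101 and -0.91 from FTC-133. ISG15, a ubiquitin-like modifier, was at 4.74 FPKM in 8505C, against 217 and 151 FPKM. IFI44 was at 0.601 FPKM, against 42.9 and 40.7 FPKM, and IFI27 at 1.08 FPKM, against 64.4 and 31.3. The 2 set apart higher were the membrane restriction factors IFITM1, at 250.1 FPKM, against 19.1 and 14.8, and IFITM2, at 168 FPKM, against 77.0 and 44.1, overlapping genes with similar sequence whose reads may be shared.

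The count of interferon-stimulated genes set apart lower was 9 with a pseudocount of 5 and 22 in the treated libraries, in which ISG15 was at 5.05 FPKM in 8505C_CRABP2, against 293 in BHT101_siCRABP2 and 339 in FTC133_siCRABP2. In antigen presentation, B2M (381 FPKM, against 167 and 158) and HLA-E (203 FPKM, against 59.8 and 31.3) were among 4 of 18 measured genes (22.2%) set apart higher. CD74 (0.0275 FPKM, against 3.17 and 2.33) was among 2 lower (11.1%). For all measured genes these shares were 8.04% and 11.1%. The 4 higher calls were 1 in the treated libraries, and HLA reads are uncertain because alleles and paralogs share sequence.

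**Figure D4:**
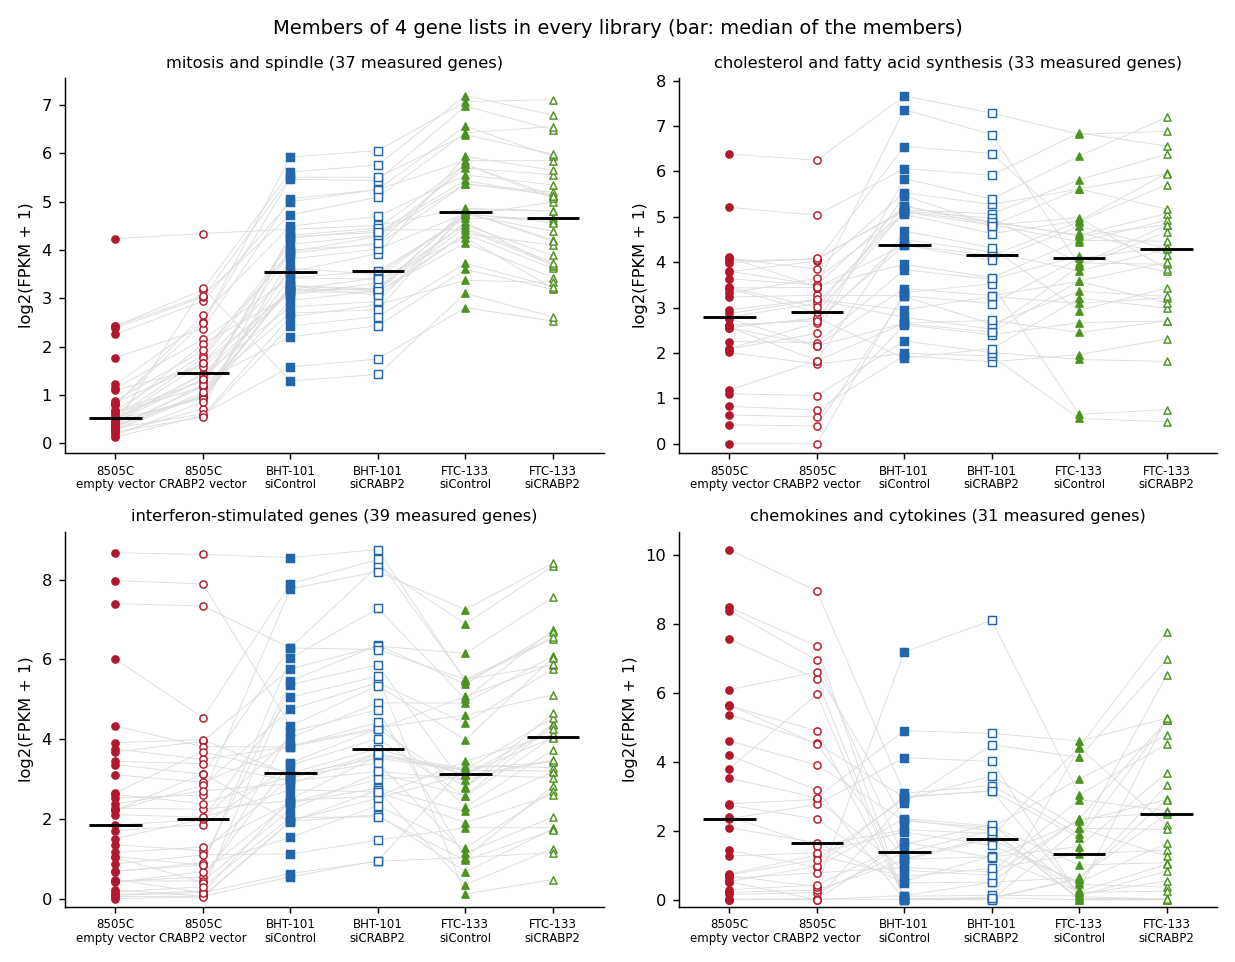
Log2(FPKM + 1) of the measured members of 4 lists in each library, with 8505C at the left of each panel, a point per gene, grey lines joining a gene and a black bar at the median. All but 1 of the 37 mitosis genes lie lower in both 8505C libraries than in the 4 others, whereas chemokines and cytokines spread to both ends of the scale in 8505C_Empty.

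Several of the genes furthest below both lines were without a read in 8505C_Empty, as were 56 of the 1323 lower genes in all. CTAG2 (a cancer-testis antigen) had 118 FPKM in BHT-101 cells and 187 FPKM in FTC-133, CD70 (a TNF family ligand) 78.4 and 307 FPKM, MT1E (a metallothionein) 60.7 and 149 FPKM, H1F0 (the linker histone H1.0) 143 and 38.9 FPKM, and SLC38A5 (an amino acid transporter) 31.1 and 47.1 FPKM. Against a floor of 3 reads in 8505C_Empty these were at least 889-fold (CTAG2), 913-fold (CD70), 486-fold (MT1E), 694.6-fold (H1F0) and 951-fold (SLC38A5) lower than in the nearer line. In 8505C_CRABP2, CD70 was at 0.0592 FPKM and the other 4 were again listed at 0. PAGE5, another cancer-testis antigen, had 1 read (0.0589 FPKM) in 8505C, against 209 and 142 FPKM. CTAG, PAGE and metallothionein genes have near-identical copies, so reads may have been split or dropped between them.

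S100A4, a calcium-binding protein of motile cells, was at 5.23 FPKM in 8505C, against 2338 FPKM in BHT-101 cells and 371 FPKM in FTC-133. CDA (cytidine deaminase, which also inactivates gemcitabine) was at 0.694 FPKM, against 43.5 and 51.4 FPKM. In the cancer-testis list 4 of 22 measured genes (18.2%) were set apart lower and 1 (4.5%) higher, beside 11.1% and 8.04% of all genes. The higher one was VCX3B, at 12.4 FPKM, against 0 and 1.2 FPKM, though 0.462 FPKM in 8505C_CRABP2 and with near-identical copies of its own. Of 6 measured metallothioneins 2 were set apart lower, and MT2A, the most abundant, was at 97.6 FPKM, against 173 and 457 FPKM.

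Line identity was read from thyroid and lineage markers. Of 22 thyroid differentiation genes 10 were measured, and thyroglobulin (TG), the TSH receptor (TSHR) and the iodide transporter (SLC5A5) stayed under 1 FPKM in all 3 libraries. NKX2-1 was at 16.7 FPKM in 8505C, 0 in BHT-101 cells and 22.6 FPKM in FTC-133. PAX8 was at 0.184 FPKM in 8505C, 0.233 in BHT-101 cells and 12.3 in FTC-133. HHEX was the member set apart, at 7.57 FPKM in 8505C, against 2.5 and 1.45 FPKM. The thyroid hormone receptor THRB was at 0.0519 FPKM, against 1.77 and 1.08 FPKM. The summed level of 8 thyrocyte markers was 17 FPKM in 8505C, 0.243 in BHT-101 cells and 35.6 in FTC-133.

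Epithelial identity was partial in 8505C. Keratins KRT18 (102 FPKM, against 145 in BHT-101 cells and 18.2 in FTC-133) and KRT7 (57.4 FPKM, against 49.2 and 44.2) were present, while KRT19 was at 0.0187 FPKM, against 328 and 0.310. EPCAM was at 0.174 FPKM, against 20.4 and 2.57 FPKM, and CDH1 (E-cadherin) at 0.00717 FPKM (1 read), against 4.74 and 0.0990. CLDN1 (claudin-1) was by contrast at 66.6 FPKM, against 5.11 and 0.866 FPKM. Of 27 measured junction genes and regulators 2 (7.4%) were set apart higher and 3 (11.1%) lower, and the same counts held for 27 mesenchymal genes. These shares were near the 8.04% and 11.1% of all measured genes. CDH2 (N-cadherin), in the mesenchymal list, was lower in 8505C, at 15.8 FPKM, against 46.1 and 37.6, and the transcription factors FOXC2 (8.81 FPKM, no read in the others) and ZEB2 (3.72 FPKM, against 0.445 and 0.940) were higher. CDH2 was at 23.2 FPKM in both 8505C_CRABP2 and FTC133_siCRABP2, against 49.2 in BHT101_siCRABP2, and ZEB2 had a smaller difference of 0.91 in the treated libraries.

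Squamous genes were low in level, with a median of 2.97 FPKM in 8505C over 11 measured genes, against 1.95 in BHT-101 cells and 0.0400 in FTC-133. DSC3 (desmocollin-3) was at 9.44 FPKM in 8505C with no read in either other control library, SPRR2D (a cornified envelope protein) at 7.70 FPKM, against 0 and 0.0766, and KRT14 at 1.67 FPKM, against 0 and 0, and 11.1 FPKM in 8505C_CRABP2. The squamous list had 4 of 11 measured genes (36.4%) higher and 2 (18.2%) lower, beside 8.04% and 11.1% of all measured genes. These counts were 6 and 2 in the treated libraries, and also 6 and 2 with 8505C_CRABP2 in place of 8505C_Empty. Fibroblast markers summed to 1.05 FPKM in 8505C, 84.0 in BHT-101 cells and 240.4 in FTC-133, with COL1A2, THY1 and DPT at 0 in 8505C, and endothelial markers to 2.99, 0.930 and 1.69 FPKM, of which CDH5 was at 1.99, 0 and 0.00663 FPKM. The markers of melanocytes summed to 0.423 FPKM in 8505C, 0.607 in BHT-101 cells and 0.299 in FTC-133, those of C cells to 0.247, 0.213 and 6.03 FPKM, and those of muscle to 0.285, 6.59 and 4.08 FPKM. The 6 epithelial markers summed to 205 FPKM in 8505C, 786 in BHT-101 cells and 98.6 in FTC-133.

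Among structural matrix genes, collagens were more often low than high in 8505C. Of 20 measured collagens 7 (35%) were set apart lower and 2 (10%) higher, beside 11.1% and 8.04% of all measured genes. The 7 were 3 with the GC trend removed and 4 in the treated libraries. COL5A2 was at 0.299 FPKM in 8505C, against 23.9 and 51.6 FPKM, and COL6A2 at 9.01 FPKM, against 112 and 78.8. COL13A1, a transmembrane collagen, was at 6.02 FPKM, against 0.747 and 0.0479 FPKM. The proteoglycan VCAN (versican) was at 0.978 FPKM, against 24.9 and 42.1, and LUM (lumican) at 0.262 FPKM, against 80.2 and 13.2. THBS2 (thrombospondin-2) was instead at 32.1 FPKM, against 0.413 and 4.27 FPKM. Matricellular proteins had 4 of 23 (17.4%) higher and 5 (21.7%) lower, and laminins and basement membrane 1 of 14 (7.1%) higher and 2 (14.3%) lower.

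Among 17 measured integrins 4 (23.5%) were set apart higher and 1 (5.9%) lower, beside 8.04% and 11.1% of all measured genes. ITGB1, the common beta-1 chain, was at 443 FPKM in 8505C, against 166 and 169.7 FPKM. Its partner ITGA11, a collagen receptor chain, was at 8.81 FPKM, against 0.237 and 2.15. ITGB5 was lower, at 20.7 FPKM, against 63.9 and 79.5. ITGA1 (23.4 FPKM, against 8.88 and 0.206) and ITGA6 (30.4 FPKM, against 13.8 and 11.9) were the other higher chains. The higher count was 2 with a pseudocount of 5, 3 with 8505C_CRABP2 in place of 8505C_Empty and 4 in the treated libraries. With the GC trend removed, the smaller difference was 0.92 for ITGB1, 0.76 for ITGA1 and 0.76 for ITGA6, each short of 1.

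Growth factor signalling genes were led by insulin-like growth factor binding proteins, with 4 of 10 measured in that list (40%) set apart higher, 1 of them the RNA-binding IGF2BP2, and 1 lower. IGFBP3 was at 129 FPKM in 8505C, against 4.25 and 15.8 FPKM, IGFBP7 at 135 FPKM, against 0.204 and 37.2, and IGFBP1 at 106 FPKM, against 22.2 and 0.0245. The smaller difference of IGFBP1 was 2.20, and it was 0.22 with 8505C_CRABP2 (26.1 FPKM) in place of 8505C_Empty and 0.19 in the treated libraries. IGFBP6 was the lower one, at 7.58 FPKM, against 69.1 and 73.0. EGFR was at 29.3 FPKM, against 11.5 and 11.1 FPKM, and its ligand HBEGF at 37.1 FPKM, against 2.01 and 5.07, among 3 of 11 family members set apart higher.

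Of 27 measured MAPK feedback and ETS target genes 5 (18.5%) were set apart higher and 3 (11.1%) lower. For all measured genes these shares were 8.04% and 11.1%. ETV5, an ERK-induced transcription factor, was at 29.7 FPKM in 8505C, against 6.99 and 5.30, and the phosphatase DUSP1 at 112 FPKM, against 32.5 and 26.3. The 3 lower members were subunits of AP-1, JUN at 13.1 FPKM, against 59.5 and 67.1, FOS at 4.62 FPKM, against 21.9 and 32.0, and JUNB at 39.2 FPKM, against 113 and 122. In the treated libraries the counts were 7 and 1: FOS was at 4.63 FPKM in FTC133_siCRABP2 and JUN had a smaller difference of -0.57. The other receptor tyrosine kinases and growth factors had 3 of 25 (12%) higher and 3 (12%) lower, and 1 and 1 in the treated libraries.

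TGF-beta and BMP genes had 3 of 35 (8.6%) higher, among them SMAD3 (47.6 FPKM, against 17.6 and 7.92), and 7 (20%) lower, among them ID2 (2.21 FPKM, against 19.4 and 14.9). In FTC133_siCRABP2, ID2 was at 1.01 FPKM, and it was not set apart in the treated libraries. YAP and TEAD targets had 5 of 27 (18.5%) higher, with AMOTL1 at 27.1 FPKM, against 2.66 and 3.45, and CAV1 the 1 lower, at 24.3 FPKM, against 87.7 and 78.4. The smaller difference of CAV1 was -1.65, and it was -0.49 in the treated libraries and -0.70 with 8505C_CRABP2 in place of 8505C_Empty. WNT genes had 2 of 24 (8.3%) higher, 5 in the treated libraries, and 1 lower (FZD7, 1.78 FPKM, against 14.6 and 12.5). Notch genes had 3 of 15 (20%) higher and 2 (13.3%) lower.

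CRABP2 and its pathway are the subject of the series. CRABP2 was at 0.607 FPKM in 8505C, against 27.3 in BHT-101 cells and 8.94 in FTC-133, a smaller difference of -2.63. In the treated libraries its order is set by the treatments, with 38.0 FPKM in 8505C_CRABP2, against 11.4 in BHT101_siCRABP2 and 0.170 in FTC133_siCRABP2. FABP5, which carries retinoic acid to another receptor, was at 26.2 FPKM in 8505C, against 169 and 47.6.

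Of 21 measured genes of retinoid receptors and handling, 1 (4.8%) was set apart higher in 8505C and 3 (14.3%) lower. For all measured genes these shares were 8.04% and 11.1%. RARG was at 1.49 FPKM, against 5.36 and 7.96, while RARA (6.28 FPKM, against 3.90 and 6.97), RARB (4.92, against 1.35 and 7.06) and RXRA (7.64, against 7.54 and 4.65) were not set apart. The orphan receptor NR2F6 was at 6.13 FPKM, against 61.2 and 51.9, and the corepressor NCOR1 was higher, at 14.2 FPKM, against 3.87 and 5.04. With 8505C_CRABP2 in place of 8505C_Empty RARG had a smaller difference of -0.85 and 1 gene of the list was lower. Of 14 measured retinoic acid responder genes 5 (35.7%) were set apart lower and 0 higher, with RARRES2 (chemerin) at 0.0229 FPKM, against 7.74 and 34.3.

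HOX genes had 5 of 23 measured (21.7%) set apart lower, all of the HOXB cluster, and 2 (8.7%) higher, both of the HOXC cluster. For all measured genes these shares were 11.1% lower and 8.04% higher. HOXB7 was at 0.372 FPKM in 8505C, against 16.6 and 15.4, and HOXB4 at 0.109 FPKM, against 4.73 and 7.83. HOXC13 was at 2.79 FPKM, against 0 and 0.239. With a pseudocount of 5 the 5 lower calls were 1 and the 2 higher calls 0, and the higher calls were also 0 with 8505C_CRABP2 in place of 8505C_Empty.

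Among 24 measured thyroid cancer driver genes 3 (12.5%) were set apart higher and 1 (4.2%), CDKN2A, lower. For all measured genes these shares were 8.04% and 11.1%. ATM was at 8.67 FPKM in 8505C, against 1.75 and 2.13, NF1 at 7.61 FPKM, against 2.54 and 0.98, and PIK3CA at 8.94 FPKM, against 2.01 and 3.69. With 8505C_CRABP2 in place of 8505C_Empty these counts were 1 and 0, with NF1 at a smaller difference of 0.69, PIK3CA at 0.997 and CDKN2A at -0.51. BRAF was at 2.63 FPKM, against 1.40 and 1.71, and was not set apart. TERT was at 0.0380 FPKM (4 reads), against 1.04 and 1.15 FPKM. Survival genes of the BCL2 list had 3 of 18 (16.7%) higher, with MCL1 at 228 FPKM, against 84.0 and 60.5, and XIAP at 30.7 FPKM, against 12.6 and 9.65. The smaller difference of XIAP was 1.22, and it was 0.91 in the treated libraries. It was 0.81 with 8505C_CRABP2 in place of 8505C_Empty and 0.68 with the GC trend removed. The cell death effector BAX was the lower member, at 8.88 FPKM, against 83.6 and 39.0.

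Metabolic and stress genes were mixed. Of 27 measured ATF4 and unfolded protein response genes 8 (29.6%) were set apart higher and 4 lower, and 2 were higher in the treated libraries. PSAT1, of serine synthesis, was at 322 FPKM in 8505C, against 34.2 and 41.3, CHAC1 at 15.9 FPKM, against 2.51 and 1.85, and the cystine transporter SLC7A11 at 18 FPKM, against 3.53 and 2.76. In the treated libraries the smaller difference was 0.08 for CHAC1, against 2.27 at baseline, and 0.76 for SLC7A11, against 2.07, so neither was set apart. The endoplasmic reticulum factor SDF2L1 was at 3.76 FPKM, against 39.0 and 37.3.

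In the glycolysis and hypoxia list 4 of 36 (11.1%) were higher and 7 (19.4%) lower, beside 8.04% and 11.1% of all measured genes. EPAS1 (HIF-2 alpha) was at 90.9 FPKM, against 11.5 and 5.90, and ADM (adrenomedullin) at 25.8 FPKM, against 4.09 and 4.33. GAPDH was at 709 FPKM in 8505C, against 1996 and 1756, and CA12 (a carbonic anhydrase) at 0.350 FPKM, against 12.1 and 31.3.

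NRF2 targets had 2 of 28 (7.1%) higher and 4 (14.3%) lower, beside 8.04% and 11.1% of all measured genes. The factor itself, NFE2L2, was at 47.6 FPKM, against 13.3 and 16, and AKR1B10, a reductase, at 0.0741 FPKM, against 78.0 and 3.09. In the treated libraries 0 were higher and 9 lower, and the smaller difference of NFE2L2 was 0.75, against 1.51 at baseline. With 8505C_CRABP2 against the siControl libraries 2 were higher and 8 lower. Drug efflux and detoxification genes had 1 of 19 (5.3%) higher and 5 (26.3%) lower, with CYP1B1 at 1.42 FPKM, against 17.7 and 12. Cathepsins and lysosome genes had 3 of 28 (10.7%) higher, with CTSL (cathepsin L) at 365 FPKM, against 60.1 and 118. In this list 2 (7.1%) were lower, which were 6 in the treated libraries. Replication-dependent histones had 3 of 23 (13%) higher and 1 (4.3%) lower, and keratins 1 of 11 (9.1%) higher, 3 in the treated libraries. Of 13 genes of the mitochondrial genome 12 were lower than in both lines and 1 was set apart, MT-CO2, at 2564 FPKM, against 11252 and 8438, and 9 were set apart with 8505C_CRABP2 in its place. Of 48 cytosolic ribosomal proteins 3 were set apart lower, with a median of -0.85 from BHT-101 and of -0.11 from FTC-133, and that from FTC-133 turned to 0.16 with quantile normalization.

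Position on the chromosomes gave a further pattern. The 568 measured genes of chromosome 7 had median differences of -0.62 from BHT-101 and -0.84 from FTC-133, and 162 of them (28.5%) were set apart lower, beside 11.1% of all genes. In 8 successive stretches of 71 genes, the lowest medians fell between 93885396 and 101139266 (-1.22 and -1.18, with 34 genes set apart lower) and between 140673153 and 158956747 (-1.27 and -1.07, with 33). The first 3 stretches, up to 73719672, had medians of -0.47, -0.20 and -0.26 from BHT-101 and of -0.09, -0.36 and -0.58 from FTC-133. In the treated libraries the chromosome 7 medians were -0.66 and -0.75.

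Genes of chromosome 20 were higher, with medians of 0.30 and 0.42 over 332 genes and 58 (17.5%) set apart higher, beside 8.04% of all genes. Chromosome 1 was lower by medians of -0.28 and -0.33. For chromosome 19 the medians were -0.45 and -0.65, and -0.09 and -0.36 once a linear trend on GC content was removed, while chromosome 7 stayed at -0.71 and -0.81 and chromosome 20 at 0.42 and 0.51. Over genes, the differences fell with transcript GC content, with Pearson correlations of -0.34 (from BHT-101) and -0.25 (from FTC-133) across 11957 genes that share the same libraries. The median GC content was 43.1% for genes set apart higher, 55.8% for those lower and 48.1% for all measured genes. The part of GC content in the single differences was not tested beyond this trend.

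**Figure D5:**
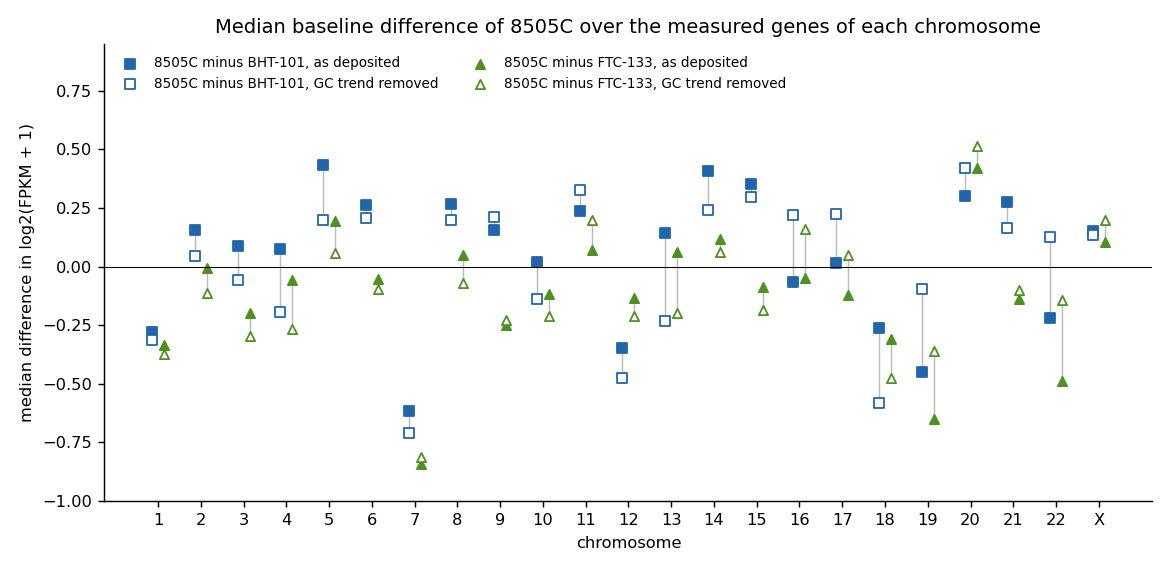
Median difference in log2(FPKM + 1) over the measured genes of each chromosome, 8505C_Empty minus BHT101_siControl (squares) and minus FTC133_siControl (triangles), as deposited (filled) and with the linear GC trend removed (open). Chromosome 7 lies lowest on both, at -0.62 and -0.84, and stays there without the trend.

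A run of 4 neighbouring genes on chromosome 16, from 67029116 to 67160298, was almost without reads in 8505C. CBFB, a partner of the RUNX transcription factors, had 3 reads (0.0282 FPKM) in 8505C_Empty, against 11.6 FPKM in BHT-101 cells and 16.9 in FTC-133. C16orf70 had 0 reads, against 2.69 and 2.92 FPKM, and B3GNT9, a glycosyltransferase, 0 reads, against 1.96 and 22.4 FPKM. TRADD, the adaptor of TNF receptor 1 signalling to NF-kB, had 0 reads, against 22.9 and 14 FPKM, which is at least 231-fold lower than in FTC-133 against the floor of 3 reads.

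In 8505C_CRABP2 the 4 genes were at 0.00973 FPKM (CBFB) and 0. The gene before the run, CES2, was at 21.8 FPKM in 8505C, against 10.3 and 9.18. After it, FBXL8 was at 0.280 FPKM, against 1.73 and 2.86, and HSF4 at 0.285 FPKM, against 4.08 and 1.47, both also low, and NOL3 followed at 8.75 FPKM, against 9.95 and 11.4. Runs of 3 or more measured neighbours under 0.1 FPKM numbered 16 in 8505C, 17 in BHT-101 cells and 8 in FTC-133, and runs in which every gene reached 1 FPKM in both other lines numbered 1, 1 and 0. Some genes of the run overlap each other, and no source used here gives the strand setting of the counting.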

How the data were processed

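Total RNA of 6 cell line cultures was sequenced, 1 library each. The authors deposited a single table of FPKM values per gene and library. Trimmomatic 0.38, FastQC and featureCounts 2.0.0, on the build GRCh38, are named in the submitters' processing notes. The aligner, annotation release and strand setting were not given in the sources used here. FPKM divides reads by exon length and library total, so a few very abundant transcripts lower all other values of a library.

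Everything else was computed from that table with Python 3.11.15, numpy 2.4.6, pandas 2.3.3, scipy 1.17.1 and matplotlib 3.10.9. Gene names, biotypes, positions, GC content and annotated exon lengths came from GENCODE release 29. Whole reads were recovered as FPKM times exon length and library total, and library totals ran from 22084110 to 27958622. With the annotated lengths, 6028 of 12195 protein-coding genes at 1 FPKM or more came out whole within 0.001 reads. For the others the nearest length that gave whole reads was taken, which brought the count to 12146 (99.6%). These lengths were fitted to the values, so whole reads there are no check of them. Read counts, floors and intervals of those genes rest on the fitted lengths. Exact (Clopper-Pearson) 95% intervals of read ratios cover counting error only. With 1 library a group no test was run. Alternatives were other pseudocounts, filters and scalings (median-ratio, upper-quartile, quantile), the second library of each line and, chosen after seeing the data, removal of a linear GC trend.

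The genes and 53 gene lists were chosen with earlier results of these data known. Named are CRABP2, the 12 genes furthest above both lines (5 FPKM or more in 8505C) and the 12 furthest below (5 FPKM or more in both others), up to 5 set-apart members a list, all measured members of 4 lists and of the cell type markers where described, and genes of runs without reads. Other genes named in the text were chosen after their values were seen. Promoter sequences are from RefSeq (GRCh38.p14), searched for letters only. Some genes and 1 list are not reported here.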

Additional observations from a re-analysis of the deposited data

How the results depend on the processing

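With a pseudocount of 5, 433 genes were set apart higher and 603 lower in 8505C, against 962 and 1323 as reported, and a required difference of 2 left 206 and 341. Against BHT-101 alone the counts were 2025 and 2392, and against FTC-133 alone 1475 and 2732. The other settings stayed within 1.5 times of both counts: 1289 and 1983 with a pseudocount of 0.1, 799 and 1159 with a minimum of 5 FPKM, 1019 and 1328 with median-ratio, 1108 and 1237 with upper-quartile and 1270 and 1095 with quantile scaling, 988 and 1192 in the treated libraries, 987 and 1246 with 8505C_CRABP2 in place of 8505C_Empty, and 1200 and 1476 over all biotypes. The counts of 988 and 1192 were over 11914 genes measured in the treated libraries. Over the 11961 genes measured in the control libraries, the treated libraries gave 956 and 1190. Removal of the GC trend, added after seeing the data, gave 796 and 1151. CRABP2 turned to 1.65 in the treated libraries and to 0.46 with 8505C_CRABP2 in place, where vector and siRNA altered CRABP2 itself. Of 197 genes named by the rule, 146 stayed set apart with a pseudocount of 5, 191 with quantile scaling and 154 in the treated libraries. No paired analysis was possible because each group has 1 library. Leaving out a library would leave a line without data. Genes near 1 FPKM rest on few reads, and the spread between cultures of 1 line is not known.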
